A study of Mus musculus with 15 samples.

Results

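Mttp, Lipc, Lcat, Pltp, Angptl4, Lrp1 and Apof encode proteins that build, remodel, hydrolyse or clear lipoproteins. Their levels were read in 15 mouse liver RNA libraries. The genes were chosen by symbol, and 7 of 7 symbols were found among the 17527 genes of the deposited table. All 7 passed the filter of a mean of at least 1 FPKM (fragments per kilobase of gene scaled to the fragments of the library), as 9575 genes in all did. The libraries formed 3 groups of 5. Mice with diet-induced nonalcoholic steatohepatitis (model) had a high-fat high-sucrose diet for 20 weeks, with 60% of its energy from fat, 20% from protein, 20% from carbohydrate and 0.2% cholesterol, and drank water with 42 g/L sugar (55% sucrose, 45% fructose). After week 12 the model mice received saline by mouth each day. The BBBPH mice had the same diet and, in place of saline, a daily oral 150 mg/kg of biotransformed bear bile powder. The labels give 14 mice in that dosed group, and 5 libraries are from it. The labels do not state what the control mice ate or were given, nor the strain, sex or age of any group. Each library is labelled as a separate sample with its own number (control 1_1 and so on), and what the numbers mean is not stated. The p-values therefore measure the spread between these samples.

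Very low density lipoproteins are put together in the endoplasmic reticulum of hepatocytes, where the microsomal triglyceride transfer protein loads lipid onto apolipoprotein B as it is made. In the circulation, lipases hydrolyse the triglycerides and phospholipids of the particles, angiopoietin-like proteins restrain those lipases, and receptors on hepatocytes take up the remnants. High density lipoproteins are reshaped by cholesterol esterification, phospholipid transfer and hepatic lipase. The 7 genes stand along this route. Mttp encodes the lipid-loading subunit of the transfer protein. Lipc encodes hepatic lipase, and Angptl4 an inhibitor of lipoprotein lipase. Lcat encodes the enzyme that esterifies cholesterol on high density lipoproteins, Pltp the phospholipid transfer protein and Apof an apolipoprotein known as a lipid transfer inhibitor. Lrp1 encodes a large endocytic receptor that binds apolipoprotein E on remnants.

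The libraries rested on 35395712 to 39624160 fragments, a depth recovered from the FPKM values themselves. Each of the 7 genes held between 1557 fragments (Pltp in control 3_4) and 46641 (Lrp1 in model 1_4), so the counting error was at most 2.53% of a value. The spread between libraries of a group was larger than the counting error for every gene. The liver label was checked on 8 hepatocyte markers. Albumin was at 21144 FPKM or more in every library, and none of the 8 was at 0. Some libraries stood apart. BBBPH 2_2 held 3904 FPKM over 8 pancreatic acinar markers, against 10.2 to 27 in the other 14 libraries, control 2_1 held 350 FPKM over 6 skeletal muscle markers, against at most 1.83, and model 1_4 held 313 FPKM over 8 markers of lipid-associated macrophages, against at most 80.7.

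The start region of Mttp and the first start region of Lipc are shown because Mttp was the gene called in 2 of the 3 comparisons and Lipc the gene whose model and control libraries did not overlap. Both are 300 bases of GRCm38.p6 from RefSeq, on the minus strand, 5′ to 3′, with 250 bases before the start site and 50 after it. Capitals mark CCAAT or its reverse strand ATTGG.
Mttp promoter, chr3:138143369-138143668: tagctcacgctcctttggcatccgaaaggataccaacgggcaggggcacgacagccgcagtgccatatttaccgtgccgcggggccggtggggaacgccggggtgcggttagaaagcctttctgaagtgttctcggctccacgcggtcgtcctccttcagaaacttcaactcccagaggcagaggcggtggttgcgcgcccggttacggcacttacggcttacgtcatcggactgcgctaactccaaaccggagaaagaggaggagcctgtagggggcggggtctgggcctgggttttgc
Lipc promoter, chr9:70952172-70952471: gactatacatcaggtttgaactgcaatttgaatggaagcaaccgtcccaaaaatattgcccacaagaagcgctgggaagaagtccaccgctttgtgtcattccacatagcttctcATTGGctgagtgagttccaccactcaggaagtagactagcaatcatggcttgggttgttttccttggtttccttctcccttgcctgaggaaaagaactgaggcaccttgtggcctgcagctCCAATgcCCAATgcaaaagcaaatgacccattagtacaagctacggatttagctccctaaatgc

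The motifs searched on both strands were AGGTCA (the core letters of many nuclear receptor sites), GTTAAT (part of the HNF1 site), CCAAT (the CCAAT box), the TATA box letters TATAAA and the E-box letters CACGTG. None of them was in the Mttp window, which is 62% G and C. That window also holds the starts of 2 Trmt10a transcripts on the opposite strand, 30 and 99 bases from the Mttp start. It lies at the RefSeq start at base 138143418, and GENCODE M21 also places an Mttp start 12041 bases further along the gene, at 138131377, for which no window was used here. The Lipc window is 47% G and C. It held CCAAT at 14 and at 7 bases before the start site and ATTGG at 135 bases before it. A second Lipc start region, at bases 70934759 to 70935058 of the same chromosome and not printed, held AGGTCA at 88 bases and its reverse strand TGACCT at 76 bases before that start, and ATTGG at 177. CCAAT was in 37.39% of the 32817 promoter windows of this length, AGGTCA in 16.26%, TATAAA in 13.62%, CACGTG in 7.15% and GTTAAT in 7.1%. A match describes the letters and is not a binding site. Which of the starts of Mttp and of Lipc these livers used was not tested. Letters absent from a printed window may therefore lie at another start of the same gene. The table of promoter windows matched 5 of the 7 genes and named neither Angptl4 nor Apof.

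The genes lie at separate places in the genome (GRCm38, GENCODE M21). Mttp spans bases 138089854 to 138144968 of chromosome 3, Lipc 70798128 to 70952226 of chromosome 9, Lcat 105939551 to 105943382 of chromosome 8 and Pltp 164839518 to 164857711 of chromosome 2. Angptl4 spans 33773750 to 33781830 of chromosome 17. Lrp1, with 88 merged exon blocks the longest of the 7 in exon bases, spans 127538161 to 127621148 of chromosome 10. Apof, with 2 exon blocks, lies on the same chromosome at 128268671 to 128270153, and it alone of the 7 is on the plus strand. Pltp shares 495 exon bases with Ctsa, a lysosomal protease gene on the opposite strand, and Mttp shares 457 with Trmt10a and 132 with Gm43691. The strand setting of the counting is not given in the sources used here, so reads of Pltp and Ctsa in the shared bases cannot be told apart. Trmt10a, a transfer RNA methyltransferase gene, was at 0.744, 1.13 and 1.02 FPKM in the control, model and BBBPH means, far under the level of Mttp. Ctsa was at 39.8, 47.6 and 52.9 FPKM, above the level of Pltp.

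The 7 genes were well expressed. Per kilobase of gene, Lcat was the most abundant in all 15 libraries and Apof the second. Angptl4 (88.8 ± 19.8 FPKM, SD, n = 5) and Mttp (88.1 ± 9.17) followed in the control libraries and overlapped each other. Next came Lipc (64.8 ± 5.69), Lrp1 (49.2 ± 7.26) and Pltp (34.5 ± 8.84), and in that run Lipc overlapped Lrp1, and Lrp1 overlapped Pltp. The order rests on the gene lengths behind the authors' values. These were recovered as 2327 bases for Apof and 1362 for Lcat, where the exons of GENCODE M21 hold 1258 and 1342. With the GENCODE lengths, an alternative chosen after the difference was seen, Apof (371 ± 33.4 FPKM) stood above Lcat (332 ± 27.1) in the control libraries, and Angptl4 (47.7 ± 10.7) fell from the third place to the fifth. Length does not enter a comparison of the same gene between groups.

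**Figure D1:**
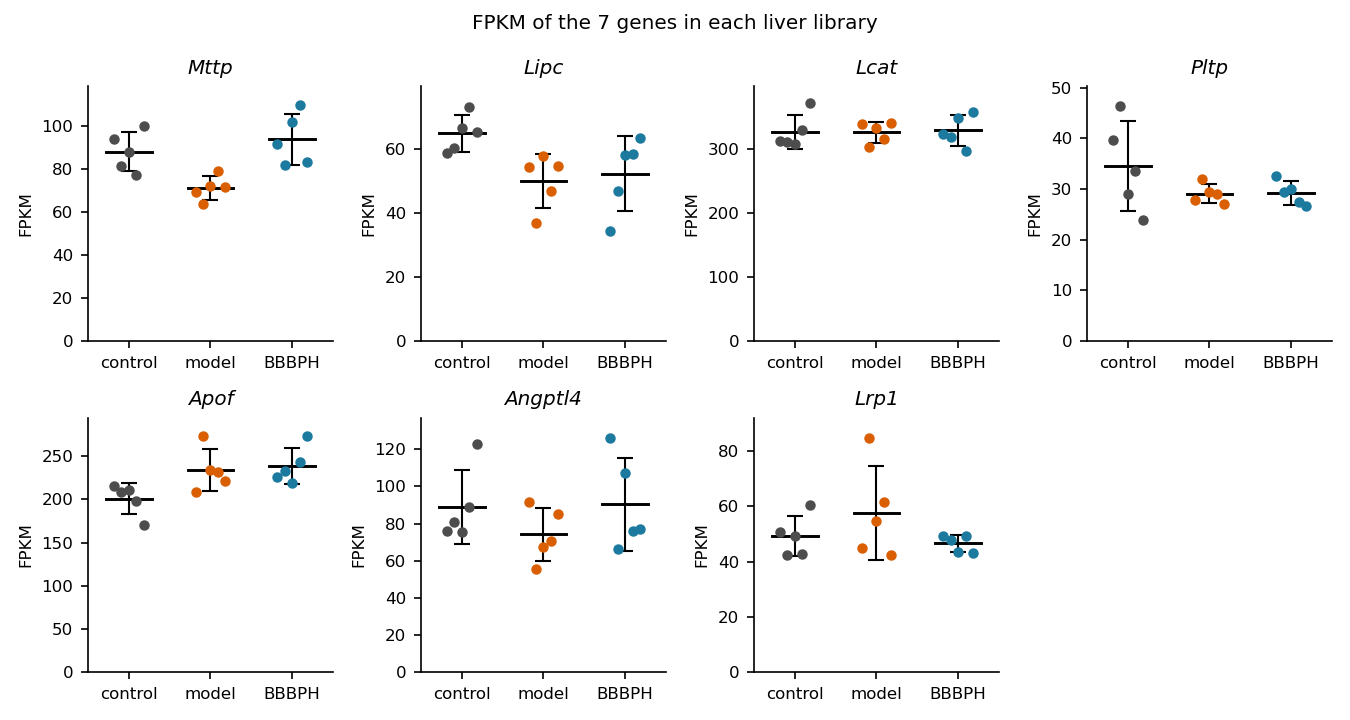
FPKM (vertical axis, from 0) of the 7 genes in each of the 15 liver libraries, by group, where points are libraries, long bars group means and short bars 1 SD (n = 5). Mttp is lower in the model libraries, all BBBPH values of Mttp lie above all model values, and Lcat is level across the groups.

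The first comparison, model against control, addresses the effect of the diet model. Of the 7 genes, 1 fell (Mttp) and 0 rose, at an adjusted p under 0.05 in limma. Among all 9575 genes tested, 38.6% were called, 29.9% higher and 8.64% lower. The groups did not overlap for 1 of the 7 genes (Lipc), against 23.9% of all genes. The median log2 fold change of the 7 was that of Pltp, -0.21, and the median of all genes was 0.12. With so few genes nothing is read from these shares. The balance of calls over all genes depended on the scaling of the libraries. It was 2865 higher and 827 lower as deposited, 1483 and 1809 under median-ratio scaling, where the median of all genes moved from 0.12 to -0.01, and 1499 and 1742 under quantile scaling.

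The second comparison, BBBPH against model, addresses the effect of the powder in mice kept on the diet. Again 1 of the 7 genes was called, Mttp, this time higher. Among all genes 26.5% were called, 14.2% higher and 12.2% lower. The groups did not overlap for Mttp alone of the 7, against 17% of all genes. The median log2 fold change of the 7 was that of Apof, 0.03, beside 0.02 over all genes. In BBBPH against control libraries 1 of the 7 was called, Apof, which was higher. Over all genes the share was 28.1%, with 24.4% higher and 3.7% lower, and groups did not overlap for 17.5% of genes and, among the 7, for Apof alone. Here too the balance turned with scaling, from 2337 higher and 354 lower to 667 and 944 under median-ratio scaling and 691 and 849 under quantile scaling. The median of the 7 was that of Angptl4, 0.01, beside 0.13 over all genes. The comparisons share libraries, so each one's values are given side by side for every gene below.

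**Figure D2:**
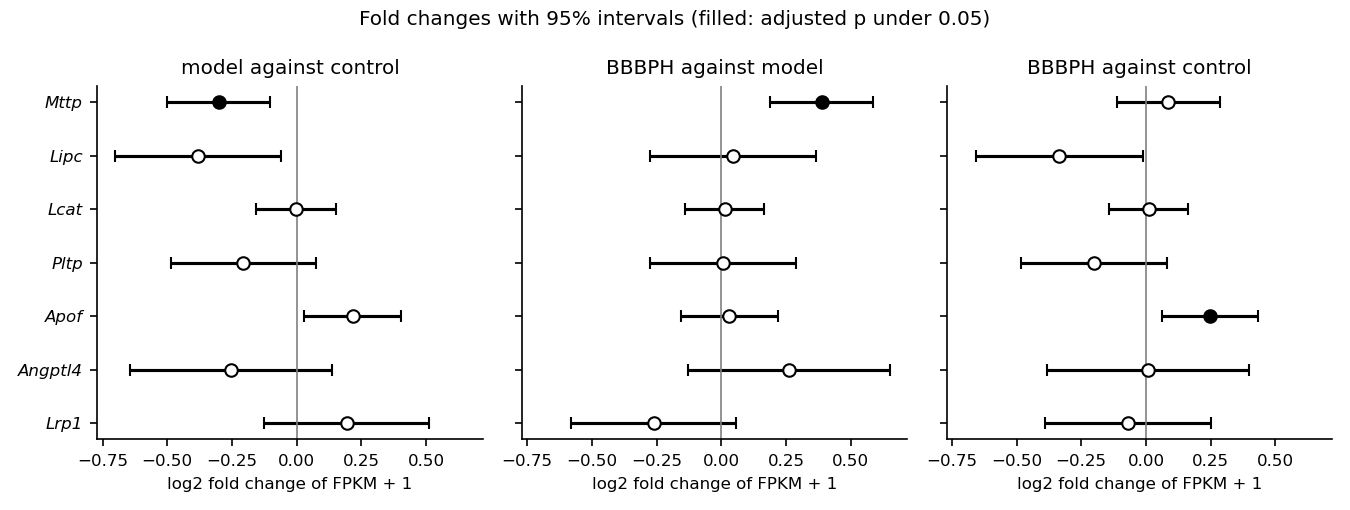
Log2 fold changes of FPKM + 1 (horizontal axis) of the 7 genes in the 3 comparisons, with 95% intervals from limma as bars. Filled points, adjusted p under 0.05, are Mttp in the first and middle panels and Apof in the right panel.

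Mttp was lower in the model livers and at about the control level in the BBBPH livers. In the order of the libraries (control 1_1, 1_5, 2_1, 2_2, 3_4, then model 1_1, 1_4, 2_1, 2_3, 3_4, then BBBPH 2_1, 2_2, 3_1, 3_2, 3_4, kept for all genes below), it was at 93.7, 81.4, 88, 77.2 and 99.9 FPKM in the control libraries, 69.2, 63.8, 72.1, 79 and 71.6 in the model libraries and 91.7, 82.1, 102, 110 and 83.4 in the BBBPH libraries. Of the 5 model libraries, 4 lay below every control library, and model 2_3 lay between control 2_2 and the rest. All 5 BBBPH libraries lay above all 5 model libraries, while BBBPH and control libraries overlapped. Mttp fell by 0.30 on the log2 scale from control to model (SE 0.09, limma adjusted p = 0.0192), to 0.81 times the control level (95% interval 0.71 to 0.93). From model to BBBPH it rose by 0.39 (SE 0.09, limma adjusted p = 0.00652), to 1.31 times the model level (1.14 to 1.50). Between BBBPH and control the difference was 0.09 (95% interval -0.11 to 0.29, adjusted p = 0.503).

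The rise of Mttp from model to BBBPH kept its call in all 27 alternatives, with log2 fold changes of 0.33 to 0.43 and adjusted p of 0.00515 to 0.0193. The fall from control to model kept it in 26, in some close to the threshold (adjusted p = 0.0491 without control 3_4, 0.0465 without control 1_1). It was -0.46 under median-ratio scaling (adjusted p = 0.00146), and -0.26 with an adjusted p of 0.0639 when model 1_4, BBBPH 2_2 and control 2_1 were left out together. The hepatocyte markers, like Mttp, were lowest in the model libraries. Their summed level was 59617 to 69614 FPKM in the control libraries, 44777 to 57115 in the model libraries and 54537 to 62953 with BBBPH. Of the 8 markers, 4 fell and 0 rose from control to model, and 1 rose and 0 fell from model to BBBPH. The part of this in the Mttp result was not tested. In bulk tissue, fewer hepatocytes and less RNA per hepatocyte cannot be told apart.

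Genes that work beside Mttp did not all share its pattern. Apob, the scaffold protein of the particle, was at 576 ± 94.4, 579 ± 91.6 and 526 ± 42.5 FPKM in control, model and BBBPH libraries and was called in none of the comparisons (log2 differences 0.00, -0.12 and -0.12, adjusted p = 0.982, 0.491 and 0.483). P4hb, which encodes the other subunit of the transfer protein, was at 499 ± 52.7, 610 ± 111 and 554 ± 54.8 FPKM. All model libraries of P4hb lay above all control libraries, yet the difference of 0.28 did not pass the test (adjusted p = 0.0633). Tm6sf2, a membrane protein gene that helps to load lipid onto the particle, was singled out after its values were seen. It was at 15.4 ± 1.84, 11.4 ± 1.50 and 17.2 ± 3.14 FPKM. It fell by 0.40 from control to model (SE 0.12, adjusted p = 0.0145) and rose by 0.54 from model to BBBPH (SE 0.12, adjusted p = 0.00319), in all 27 alternatives of each.

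Among the 20 genes of a list for lipoprotein assembly and secretion, all tested, 6 rose and 2 fell from control to model, 3 rose and 4 fell from model to BBBPH, and 2 rose and 2 fell from control to BBBPH. The medians were 0.05, -0.05 and 0.06. Every list count in this report stands beside these shares over all genes. They were 29.9% higher and 8.64% lower from control to model, and 14.2% and 12.2% from model to BBBPH. From control to BBBPH they were 24.4% and 3.7%. The medians over all genes were 0.12, 0.02 and 0.13. The genes that fell from control to model were Mttp and Tm6sf2, and those that rose included the endoplasmic reticulum chaperones Hspa5 and Hsp90b1. Hspa5 was at 282 ± 45.8, 842 ± 171 and 175 ± 36.7 FPKM, a rise of 1.56 to the model libraries and a fall of 2.26 to BBBPH (adjusted p = 8.72e-06 and 1.41e-06). Hsp90b1 rose by 1.16 (adjusted p = 8.12e-06) and fell by 1.18 (adjusted p = 9.97e-06). Hspa5 and Hsp90b1 were highest in the group where Mttp and Tm6sf2 were lowest, and a relation between them was not tested.

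Hepatic lipase, Lipc, had lower means in both diet groups. It was at 58.8, 60.4, 66.4, 73.2 and 65.4 FPKM in the control libraries, 54.4, 36.8, 57.6, 46.7 and 54.7 in the model libraries and 34.2, 47, 58, 58.4 and 63.5 in the BBBPH libraries. Every model library lay below every control library. The BBBPH libraries spread widest, with 2_1 the lowest of all 15 and 3_4 within the control range. The log2 difference of model from control was -0.38 (SE 0.15, 95% interval -0.70 to -0.06), and limma's adjusted p of 0.0583 missed the threshold. It passed under median-ratio scaling (-0.54, adjusted p = 0.00963), under quantile scaling (-0.49, adjusted p = 0.0186), in a fit of the 2 groups alone (adjusted p = 0.0239) and without BBBPH 2_1 (adjusted p = 0.0184), which lowers the spread shared by the groups. It was smaller without model 1_4 (-0.28, adjusted p = 0.144) and without that library, BBBPH 2_2 and control 2_1 together (-0.27, adjusted p = 0.214). BBBPH differed from model by 0.05 (-0.28 to 0.37, adjusted p = 0.854), and by -0.06 without model 1_4 (adjusted p = 0.802). It differed from control by -0.34 (-0.66 to -0.01, adjusted p = 0.109), by -0.51 under median-ratio scaling (adjusted p = 0.0251) and by -0.19 without BBBPH 2_1 (adjusted p = 0.241).

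The hepatocyte marker sums above also separate the model from the control libraries, as Lipc does, and their part in the Lipc values was not tested. In the BBBPH libraries these sums overlapped those of both other groups, with 61951 FPKM in BBBPH 2_1, where Lipc was lowest.

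Pooled over the groups, Angptl4 varied most of these genes between libraries of the same group, though not in every single group. It was at 76, 80.8, 75.4, 88.8 and 123 FPKM in the control libraries, 91.8, 55.8, 67.6, 70.5 and 85.3 in the model libraries and 126, 66.1, 107, 75.8 and 76.9 in the BBBPH libraries. High libraries occurred in control (3_4) and in BBBPH (2_1 and 3_1), and all 3 groups overlapped. Its spread within groups, an SD of 0.32 on the log2 scale, was larger than that of 92.65% of the genes tested. The differences were -0.25 from control to model (adjusted p = 0.289), 0.26 from model to BBBPH (-0.13 to 0.65, adjusted p = 0.319) and 0.01 from control to BBBPH (adjusted p = 0.979). None of 27 alternatives for any of these made a call. Without control 3_4 the first difference was -0.13, and without BBBPH 2_1 the second was 0.13. Without model 1_4 they were -0.16 and 0.16.

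The other lipases and inhibitors moved in several directions. Angptl8, a feeding-induced gene of the angiopoietin-like family, was at 9.29 ± 2.59, 18.99 ± 7.44 and 19.7 ± 6.20 FPKM in control, model and BBBPH libraries. It rose by 0.89 from control to model (adjusted p = 0.0197, and 0.0536 and 0.0505 without model 2_1 or model 3_4) and was 0.99 higher in BBBPH than in control (adjusted p = 0.0167). So Angptl8 was called in both comparisons with control, and Angptl4 in none.

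Lpl, the gene of lipoprotein lipase, which the adult liver makes little of, was at 6.65 ± 2.29, 11.6 ± 4.38 and 4.63 ± 0.76 FPKM. It rose by 0.70 from control to model (adjusted p = 0.0193), a call lost under median-ratio scaling (adjusted p = 0.0513), quantile scaling (0.0531) and without control 1_1 (0.0532). It fell by 1.10 from model to BBBPH (adjusted p = 0.00172), with no overlap. Lpl is also a macrophage and adipocyte gene. It was highest in model 1_4 (18.4 FPKM), the library with the highest sum of lipid-associated macrophage markers, and 5 of the 7 of these markers tested, Lpl itself among them, rose and 0 fell from control to model. The sum of 7 adipocyte markers was 601 to 1385 FPKM in the control libraries, 1548 to 4030 in the model libraries and 743 to 1058 with BBBPH. However, no more than 2 of the 7, Cfd and Car3, reached a mean of 1 FPKM. The sum therefore rests almost wholly on these 2 genes and does not by itself show adipocytes. The part of macrophages or adipocytes in the Lpl result was not tested.

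Lipg, endothelial lipase, was at 4.30 ± 0.75, 3.43 ± 0.76 and 5.44 ± 1.59 FPKM. Its rise of 0.52 from model to BBBPH (adjusted p = 0.0369) was lost in 8 of 27 alternatives. Apoc1, an apolipoprotein known to inhibit lipases, fell by 0.53 from model to BBBPH (adjusted p = 0.00126). Apoa5, an activator of triglyceride hydrolysis that was singled out after its values were seen, was at 513 ± 47.5, 438 ± 55.4 and 608 ± 71.9 FPKM and rose by 0.47 in that comparison (adjusted p = 0.00376). Furin, a protease that cleaves angiopoietin-like proteins and lipases, rose by 0.29 (adjusted p = 0.00771). Over the list of 16 lipase genes and regulators, 6 rose and 0 fell from control to model, 3 rose and 4 fell from model to BBBPH, and 4 rose and 2 fell from control to BBBPH. The medians were 0.05, -0.03 and 0.09, beside 0.12, 0.02 and 0.13 over all genes, of which 29.9%, 14.2% and 24.4% were called higher.

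**Figure D3:**
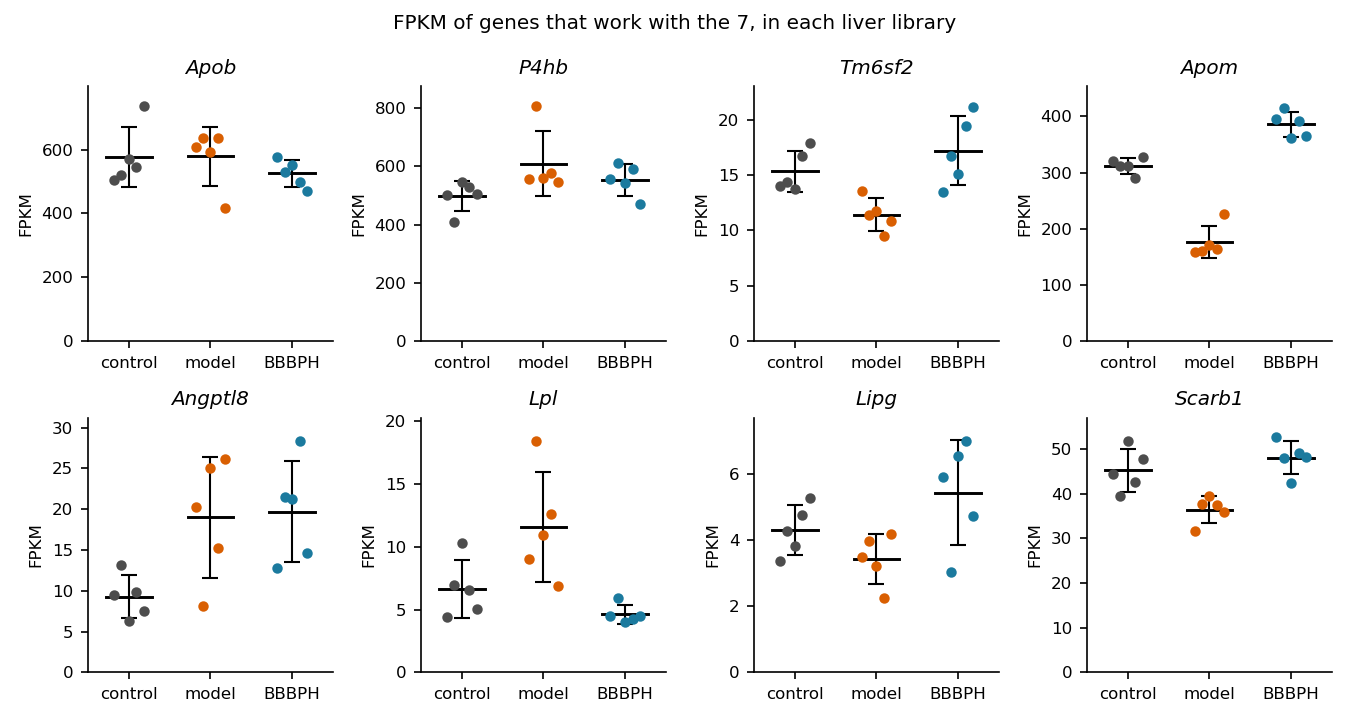
FPKM (vertical axis, from 0) of 8 genes that work beside the 7, in each of the 15 liver libraries by group, where points are libraries, long bars means and short bars 1 SD (n = 5). Tm6sf2 and Scarb1 have their lowest means in the model libraries, Apom has its lowest there too and its highest in BBBPH, and Apob and P4hb overlap between model and BBBPH.

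Lcat held the same level in every group. It was at 313, 312, 308, 330 and 372 FPKM in the control libraries, 339, 303, 333, 315 and 340 in the model libraries and 323, 318, 349, 297 and 358 in the BBBPH libraries. All 3 ranges overlapped over most of their length. The log2 differences were 0.00 from control to model (95% interval -0.16 to 0.15), 0.01 from model to BBBPH (-0.14 to 0.17) and 0.01 from control to BBBPH (-0.14 to 0.16), with adjusted p of 0.982, 0.915 and 0.927. As a fold, the first interval ran from 0.90 to 1.11. Lcat also varied little within groups, with an SD of 0.10 on the log2 scale, less than in most genes (13.93% of those tested had a smaller one). Median-ratio scaling moved it to -0.16 in both comparisons with control, without a call.

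Pltp showed no difference that passed the test. It was at 39.7, 46.4, 29.1, 33.6 and 23.8 FPKM in the control libraries, 27.9, 31.9, 29.5, 29 and 27 in the model libraries and 32.7, 29.5, 30, 27.5 and 26.6 in the BBBPH libraries. The control libraries held both the highest and the lowest value, and the 10 diet-fed libraries lay close together between them. The differences were -0.21 from control to model (SE 0.13, adjusted p = 0.229), -0.20 from control to BBBPH (adjusted p = 0.266) and 0.01 from model to BBBPH (-0.28 to 0.29, adjusted p = 0.982). Control 3_4 and control 1_5 decided the first of these. Without control 3_4 it was -0.33 and passed (adjusted p = 0.0314), and without control 1_5 it was -0.09 (adjusted p = 0.553). The comparison of BBBPH with control passed likewise without control 3_4 (-0.32, adjusted p = 0.0472), and was -0.09 without control 1_5 (adjusted p = 0.591). Median-ratio scaling gave -0.36 for model against control (adjusted p = 0.0473). Its neighbour Ctsa, with which it shares exon bases, was 0.24 higher in model than in control libraries (adjusted p = 0.0416, a call lost in 15 of 27 alternatives) and 0.40 higher in BBBPH than in control libraries (adjusted p = 0.00535, and 0.0719 under median-ratio scaling), and how much of its reads went to Pltp was not tested.

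Apof was higher in the BBBPH than in the control livers, and its difference between model and control did not pass the test. It was at 215, 209, 211, 199 and 170 FPKM in the control libraries, 208, 273, 234, 232 and 221 in the model libraries and 225, 232, 219, 243 and 273 in the BBBPH libraries. All BBBPH libraries lay above all control libraries, and 4 of 5 model libraries did. The difference was 0.25 from control to BBBPH (SE 0.09, limma adjusted p = 0.0459), or 1.19 times (1.04 to 1.35). From control to model it was 0.22 (SE 0.09, 95% interval 0.03 to 0.40) and missed the threshold (adjusted p = 0.0621). From model to BBBPH it was 0.03 (-0.15 to 0.22, adjusted p = 0.823). The call against control was not firm. It was lost in 14 of 27 alternatives, with adjusted p over all 27 of 0.0274 to 0.586, among them median-ratio scaling, under which the difference was 0.07, quantile scaling (0.17, adjusted p = 0.175), no filter (adjusted p = 0.0627) and leaving out any of 10 single libraries (control 1_5, 2_1, 2_2 or 3_4, model 2_1, 2_3 or 3_4, or BBBPH 2_2, 3_2 or 3_4, adjusted p of 0.0512 to 0.113). Apof from control to model passed when values were scaled to TPM (adjusted p = 0.0406) and without model 1_1 (adjusted p = 0.0397). It was 0.06 under median-ratio scaling (adjusted p = 0.625) and 0.16 without model 1_4 (adjusted p = 0.141) or control 3_4 (adjusted p = 0.151).

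Around these genes, the 14 tested genes of a list of 15 for high density lipoprotein remodelling gave 1 rise and 3 falls from control to model, 4 and 2 from model to BBBPH, and 3 and 0 from control to BBBPH, with medians of -0.04, 0.01 and 0.05. Apom, an apolipoprotein of these particles, was at 312 ± 14.5, 176 ± 28.7 and 386 ± 22.7 FPKM. It fell by 0.84 from control to model (adjusted p = 1.19e-05) and rose by 1.14 from model to BBBPH (adjusted p = 2.18e-06). Apoa1, their main protein, rose by 0.83 from model to BBBPH (adjusted p = 0.000468), and its fall of 0.40 from control to model (adjusted p = 0.0295) was lost in 7 of 27 alternatives. Scarb1, the receptor that takes up their cholesterol esters, was at 45.2 ± 4.76, 36.5 ± 3.01 and 48.1 ± 3.69 FPKM, a fall of 0.30 (adjusted p = 0.00978) and a rise of 0.39 (adjusted p = 0.00275) close in size to those of Mttp. Abca1, the exporter that starts the formation of the particles, was called in no comparison (18.9 ± 2.37, 18.4 ± 5.16 and 17.5 ± 0.70 FPKM, adjusted p = 0.699, 0.915 and 0.616).

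Lrp1 was called in no comparison. It was at 50.5, 42.6, 49.4, 42.9 and 60.4 FPKM in the control libraries, 45, 84.6, 54.7, 61.6 and 42.5 in the model libraries and 49.1, 47.8, 43.6, 49.2 and 43 in the BBBPH libraries. Model 1_4 was the highest of all 15, followed by model 2_3 and control 3_4, while the other 12 libraries lay between 42.5 and 54.7. The differences were 0.19 from control to model (SE 0.15, adjusted p = 0.324), -0.26 from model to BBBPH (SE 0.15, adjusted p = 0.220) and -0.07 from control to BBBPH (adjusted p = 0.758). Without model 1_4 the first was 0.05 (adjusted p = 0.783) and the second -0.11 (adjusted p = 0.520). Lrp1 is made by hepatocytes, macrophages and stellate cells. The sum of lipid-associated macrophage markers in model 1_4 is given above. The sum of 12 stellate cell and fibroblast markers was 195 to 227 FPKM in the control libraries, 263 to 305 in the model libraries and 231 to 251 with BBBPH, with 10 of 11 tested markers higher in model than in control. Their part in the Lrp1 values was not tested.

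Lrp4, a smaller receptor of the same family as Lrp1, fell by 0.76 from control to model (adjusted p = 1.59e-05) and rose by 0.76 from model to BBBPH (adjusted p = 2.33e-05). Lrpap1, the chaperone that escorts Lrp1 to the cell surface, was called in no comparison (14.4 ± 1.10, 15.1 ± 0.75 and 15.4 ± 1.21 FPKM, adjusted p = 0.457, 0.798 and 0.311). Of 17 tested genes in a list of 21 receptors and regulators, 2 rose and 4 fell from control to model, 5 rose and 1 fell from model to BBBPH, and 6 rose and 1 fell from control to BBBPH, with medians of -0.10, 0.15 and 0.09.

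Libraries differed in how many of the 7 genes put them at an end of their group's range. Model 1_4 had the highest or lowest model value for 7 of 7 genes, highest for 3 (Lrp1, Apof and Pltp) and lowest for 4 (Mttp, Lipc, Lcat and Angptl4). Control 3_4 did so for 6 of 7, with the highest control value of Mttp, Lcat, Angptl4 and Lrp1 and the lowest of Pltp and Apof. BBBPH 3_4 did so for 5. Without model 1_4, the fall of Mttp from control to model and its rise to BBBPH kept their calls (adjusted p = 0.0447 and 0.0169).

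**Figure D4:**
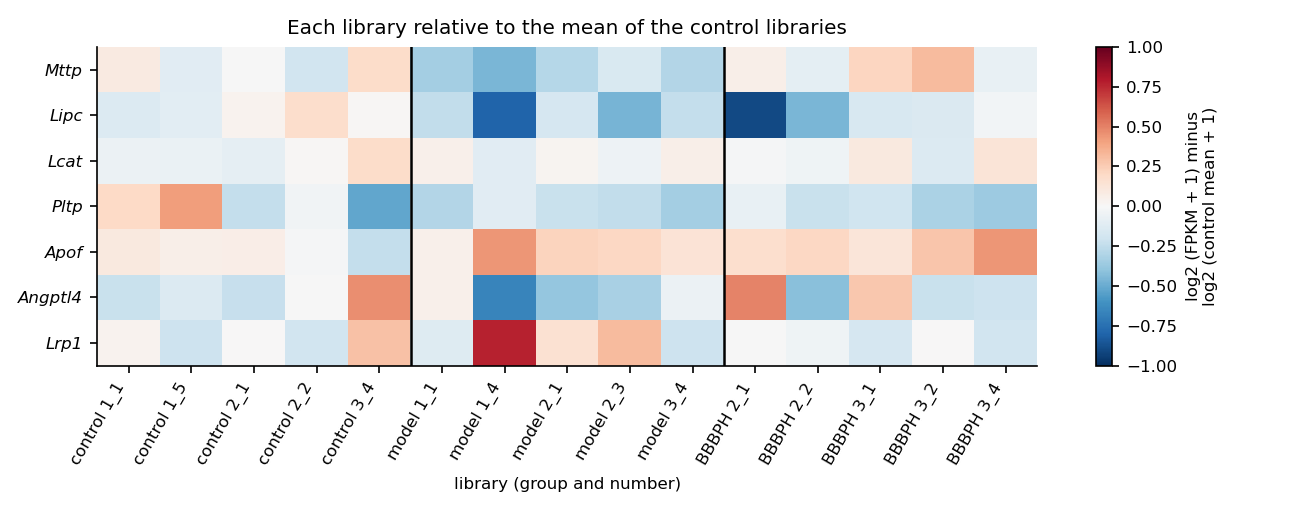
Level of the 7 genes (rows) in each of the 15 libraries (columns), as log2(FPKM + 1) minus the same of the control mean, from -1 (blue) to 1 (red), with lines between the groups. Model 1_4 is at an end of the model range in all 7 rows, and the Mttp row is blue in all model libraries.

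Transcription factors that act on Mttp and other hepatocyte lipoprotein genes were read from a list of 16, of which 13 were tested. From control to model 3 rose and 4 fell, from model to BBBPH 3 and 3, and from control to BBBPH 4 and 3, with medians of -0.04, 0.03 and -0.03. Hnf4a, a main activator of Mttp and Apob, was at 172 ± 21.9, 193 ± 7.58 and 134 ± 20.7 FPKM and fell by 0.54 from model to BBBPH (adjusted p = 0.00147), the comparison in which Mttp rose. Srebf1, whose product drives lipogenic genes, fell by 0.82 from control to model (adjusted p = 0.0155) and rose by 1.25 from model to BBBPH (adjusted p = 0.00166). Srebf2, which drives cholesterol synthesis, rose by 0.51 from control to model (adjusted p = 0.00071). It was 0.73 higher in BBBPH than in control (adjusted p = 0.000171). From model to BBBPH it was not called, with differences of 0.16 to 0.28 over the 27 alternatives. Foxo3, a forkhead factor restrained by insulin, fell by 0.32 from control to model (adjusted p = 0.012) and by 0.27 from model to BBBPH (adjusted p = 0.0345, a call lost in 11 of 27 alternatives). From control to BBBPH it fell by 0.59 (adjusted p = 0.000593), in all 27 alternatives. These are levels of messenger RNA and not of active factors.

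Angptl4 is a classical target of the fatty acid receptors PPAR, and the 22 genes of a list of these receptors and their targets gave 7 rises and 0 falls from control to model, 4 and 1 from model to BBBPH, and 12 and 0 from control to BBBPH. Over all genes, 29.9%, 14.2% and 24.4% were called higher, shares that fell in both comparisons with control under median-ratio and quantile scaling. The medians of 0.30, 0.09 and 0.43 stand beside 0.12, 0.02 and 0.13 over all genes. Ppara was at 36.8 ± 5.41, 37 ± 5.47 and 53 ± 5.07 FPKM and rose by 0.51 from model to BBBPH (adjusted p = 0.00416). Cpt1a, the gate of fatty acid oxidation, rose by 0.54 in the same comparison (adjusted p = 0.000433). Vnn1, a pantetheinase, rose by 1.95 from control to model (adjusted p = 2.27e-06), and Pparg by 1.54 (adjusted p = 0.000133). Pparg was the 1 gene of the list called lower from model to BBBPH. Its log2 differences there were -1.75 to -1.13 over 27 alternatives, all with a call (adjusted p of 0.000319 to 0.00388). Between BBBPH and control it was not called. Angptl4, listed among these 22, was not among those called. Angptl4 is also induced by glucocorticoids, fasting and hypoxia, and 15 tested genes of a list of 16 for these gave 5 rises and 4 falls from control to model, 3 and 3 from model to BBBPH, and 4 and 4 from control to BBBPH, with medians of -0.27, -0.32 and -0.11.

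Pltp is a known target of the oxysterol receptors LXR. Of 15 genes in a list of these, 2 rose and 5 fell from control to model, 4 and 4 from model to BBBPH, and 4 and 1 from control to BBBPH, with medians of -0.07, 0.01 and 0.11. Lpcat3, which remodels phospholipids and supports lipoprotein assembly, fell by 0.54 from control to model (adjusted p = 0.000479) and rose by 0.87 to BBBPH (adjusted p = 1.82e-05). The sterol exporter Abcg5 fell by 0.94 (adjusted p = 8.9e-05) and rose by 1.13 (adjusted p = 3.26e-05). Lpl, also in this list, went the other way in these comparisons, as given above. Pltp, listed among these 15, was not among those called.

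**Figure D5:**
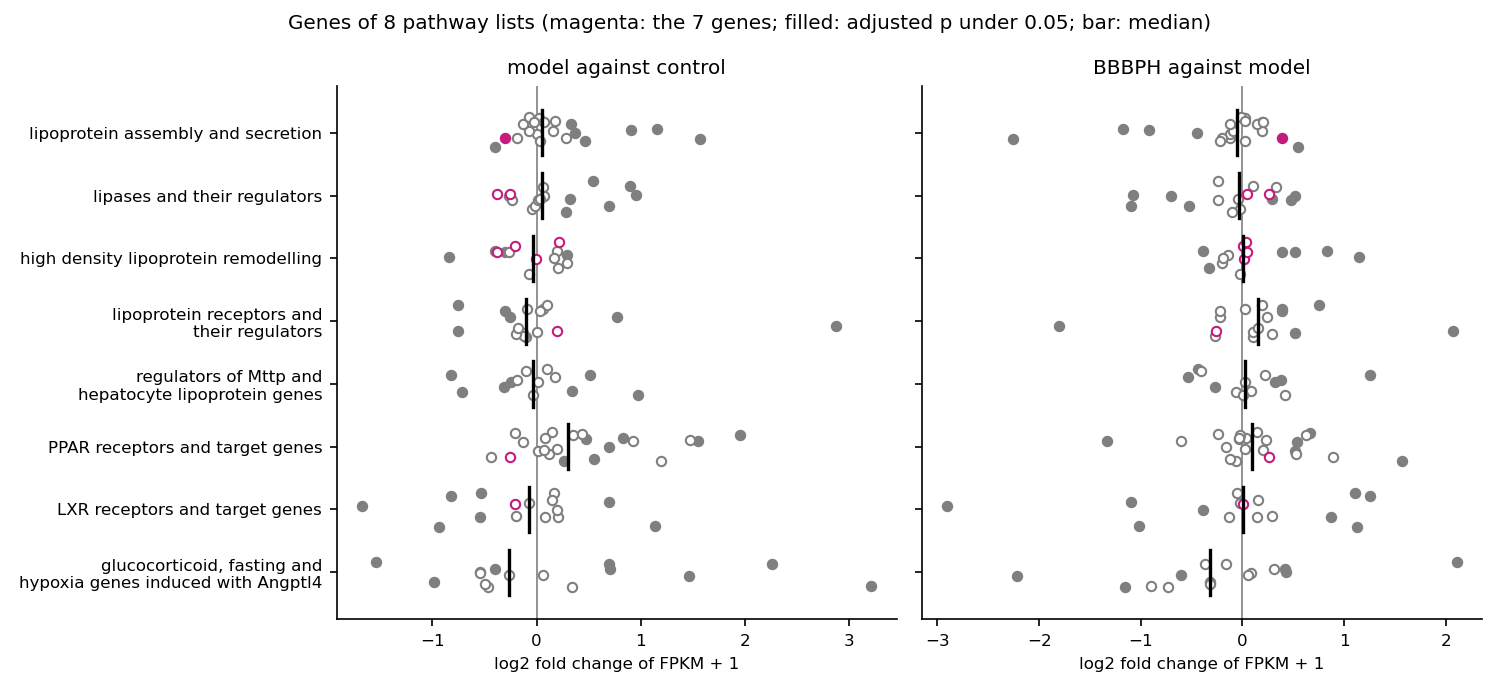
Log2 fold changes of FPKM + 1 (horizontal axis) of the genes of 8 lists (rows) in 2 comparisons, with the 7 genes in magenta, filled points for an adjusted p under 0.05 and bars for the median of each list. Mttp is the filled magenta point, left of 0 in the first panel and right of 0 in the other, and the PPAR list has the highest median in the first panel.

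The genes whose levels ran most like each of the 7 over the 15 libraries were found by Pearson's r of log2(FPKM + 1) among 9417 other genes, as a description. Since the libraries share their group differences, r was also taken after the group means were removed. Pkd1 (r = 0.90, and 0.74 without group means) and Inppl1 (0.90 and 0.78) were most like Mttp. Ugt2a3 (0.87 and 0.81) and Grsf1 (0.82 and 0.74) were most like Lipc. Retsat (0.84 and 0.85) and Nfkbil1 (0.75 and 0.78) followed Lcat, and Fyttd1 (0.79 and 0.76) and Slc25a39 (0.77 and 0.72) followed Pltp. Pllp (0.87 and 0.85) and Hsd17b11 (0.86 and 0.86) were most like Angptl4, and Prdm4 (0.85 and 0.89) and Steap4 (0.85 and 0.83) most like Lrp1. The closest likeness was that of Apof with Bak1 (0.94 and 0.90) and Tgs1 (0.93 and 0.87). None of the 7 genes was in the closest pair of another.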

How the data were processed

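Per the labels' protocols, the 15 liver libraries were made with the VAHTS Universal V6 kit from total RNA taken up in TRIzol. The values are FPKM deposited by the authors, 1 column per library. The submitters' processing notes list the build mm10 and the tools HISAT2, HTSeq, fastp and DESeq2, without versions or roles. The gene annotation and the strand setting are not given in the sources used here. Single files of each library equalled the table (largest difference 0 FPKM).

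Depth and gene lengths were recovered from the FPKM, since the values of a gene are whole multiples of what 1 fragment is worth (tolerance 0.02). At least 99.88% of each library's fragments were recovered. Chi-square per gene between libraries of a group was 32.1 to 378, where sampling noise gives about 1, so no 2 libraries of a group agreed within counting noise. The labels list them as separate samples. The limma test (version 3.58.1, R 4.3.3) took genes averaging 1 FPKM or more over the libraries, on log2(FPKM + 1), with a pseudocount of 1, over 3 group means and 12 residual degrees of freedom (eBayes, trend=TRUE). Benjamini-Hochberg adjustment of 2-sided p-values ran over all 9575 genes within each comparison. Every adjusted p in the text is from this limma test or, where an alternative is named, from that alternative, and differences understate the change of low genes. The procedure was tested on simulated data with independent noise in each gene, which do not bear on the scaling of the libraries.

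The 7 genes, the 8 pathway lists and the marker lists were chosen with earlier results of these data known, so list counts are not independent evidence. Named by rule were the 7, up to 3 called genes of each list per comparison by adjusted p, partners whatever their values, and the 2 genes most like each of the 7. Some genes that the rule names are not reported here, and they stay in the tests and list counts. Alternatives were a pseudocount of 0.1, no filter, TPM, median-ratio or quantile scaling, other variance settings, a 2-group fit, a replicate block, voom on recovered counts and libraries left out. Positions are from GENCODE M21 and promoter sequence from RefSeq, both GRCm38. Python 3.11.15, numpy 2.4.6, pandas 2.3.3 and matplotlib 3.10.9 were used for reading and plotting.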

Additional observations from a re-analysis of the deposited data

Results flagged for a closer look

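Over 38 named genes in 3 groups, 114 groups of 5 libraries were checked for a single library far from the other 4, by its gap to the nearest one as a share of the group's range. Chance flags about 1 in 20 such groups, and 9 were found, 1 of them in the 7 genes. Angptl4 was at 123 FPKM in control 3_4, against 75.4 to 88.78 in the other control libraries. Apob was high in the same library, at 738.6 FPKM against 504 to 570.6. Apob was low in model 3_4, at 418.5 FPKM against 594 to 637.3, where Apom was high, at 226.4 against 158.6 to 171.4. P4hb was at 806.9 FPKM in model 1_4, against 547.6 to 577.9. Lpl was at 5.941 FPKM in BBBPH 2_2, against 3.996 to 4.5, and Furin at 50.26 in BBBPH 3_2, against 42.01 to 42.82. In control 1_1, Lrp4 was low at 4.923 FPKM, against 5.497 to 5.584, and so was Ppara at 27.35, against 37.59 to 40.59.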

How the results depend on the processing

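Over the 7 genes, 3 comparisons and 27 alternatives, 496 of 567 values kept their direction and side of the threshold, 15 lost a call (14 of them Apof in BBBPH against control), 10 gained one, 46 uncalled values changed sign and 0 calls reversed. For the other named genes these counts were 2288 of 2430, 75, 5, 62 and 0. The number of the 7 called from control to model, 1, was 2 with TPM, quantile scaling or a 2-group fit, 3 with median-ratio scaling, 0 without model 1_4, BBBPH 2_2 and control 2_1 together, and 1 to 2 with single libraries left out. From control to BBBPH, 1, it was 0 with no filter, quantile scaling or the replicate block, and 0 to 1 with single libraries left out. With median-ratio scaling it stayed at 1, but the gene was Lipc and not Apof. From model to BBBPH it was 1, Mttp, in every alternative. Over all genes, the calls from control to BBBPH were 1611 with median-ratio and 1540 with quantile scaling, against 2691. Counting error was at most 2.53% for the 7 genes, so the spread between the 5 libraries of a group and not the depth limits these comparisons.

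Libraries that share a full replicate number across groups did not deviate together. Deviations from the group means correlated at -0.33 to 0.02 in the 8 pairs that share a number across groups, and 0 of 10 libraries correlated best with their own number. The first digit of the numbers was not tested alone, and what it means is not stated. With the number as a replicate block, the adjusted p of Apof from control to BBBPH was 0.0535, and no other call of the 7 changed. The calls over all genes then were 2671 higher and 769 lower from control to model.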
